A study of Homo sapiens with 6 samples.

Results

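The MYC, MAX and MXD network is described here by 10 genes, taken by gene symbol from a deposited count table of 58735 genes. They are MYC, MYCN, MYCL, MAX, MXD1, MXD3, MXD4, MXI1, MNT and MLX. RNA was sequenced from Het1A, an oesophageal epithelial cell line that carries the SV40 large T antigen. In the 3 bile acid libraries, cells had met medium of pH 4.0 with a 100 µM mixture of bile acids (deoxycholic, glycochenodeoxycholic, glycocholic, glycodeoxycholic and taurocholic acid) for 10 min on each of 5 days. In the 3 control libraries, cells had been given 0.1% DMSO. Serum was lowered to 1% in all wells 48 h before treatment and stayed there, in a keratinocyte medium with pituitary extract and EGF, and all RNA was collected 24 h after the last exposure. The labels do not state an acidified control, so low pH and bile acids cannot be told apart. The labels number the libraries of each group as biological replicates 1 to 3 without saying how the cultures were kept separate, so the p-values measure the spread between these libraries. CPM are counts scaled to library size with TMM factors, and FPKM are the deposited values, which are also scaled to exonic length.

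MYC, MYCN and MYCL are transcription factors that drive growth genes, and each must pair with MAX to bind the DNA motif CACGTG, called the E-box. MXD1, MXD3, MXD4, MXI1 and MNT also pair with MAX, bind the same motif and recruit SIN3 corepressors, so they oppose MYC at shared targets. MLX is a relative of MAX that pairs with MondoA and ChREBP, the glucose-responsive factors, and with some MXD proteins and MNT. MYC RNA and protein are short-lived, and mitogens raise MYC in epithelial cells.

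The libraries held between 21006677 and 28497721 counts, at which 3 counts, the floor used here, correspond to 0.105 to 0.143 CPM without the TMM factors. That floor covers counting error only. Control library 2 stood apart, with a Pearson correlation of log2 CPM across genes of 0.890 to 0.928 with the other libraries, which correlated among themselves at 0.974 to 0.986 (genes are not independent replicates). Results that rest on it are therefore given with and without it. Of 11 squamous markers, 5 reached 1 FPKM in some library, KRT17, SFN, DSP, KRT16 and CDH1, and the defining markers TP63, KRT5 and KRT14 stayed at or near 0 in all 6. Of 8 columnar markers 2 reached 1 FPKM, the keratins of simple epithelium KRT8 at 41.2 to 80.9 FPKM and KRT18 at 52.4 to 174 FPKM. CDX1 had 0 counts throughout, and CDX2, KRT20, VIL1, MUC2 and TFF3 stayed at or below 0.286 FPKM. Of 7 fibroblast markers 2 reached 1 FPKM, COL1A1 at 3.70 to 20.01 FPKM and THY1 at 10.6 to 25.7 FPKM, while COL3A1 had 0 counts throughout. The list summed to 17.7 to 29.8 FPKM in controls and 19.7 to 31.1 FPKM in bile acid libraries. Of 5 leukocyte markers 1 did, CD14 at 4.23 to 7.26 FPKM, while PTPRC, CD3E and LYZ had 0 counts throughout, and the list summed to 4.47 to 5.86 FPKM in controls and 5.72 to 7.48 FPKM in bile acid libraries. Of 4 endothelial markers 0 reached 1 FPKM, and CDH5 had 0 counts throughout. Whether these marker levels bear on the results was not tested.

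MYC was higher in every bile acid library than in every control library and MNT and MXD1 were too, while the level of MAX differed by less than the spread between libraries. MYC measured 42.5, 30.8 and 28.7 CPM in controls 1 to 3, against 107, 58.9 and 92.1 CPM after bile acid exposure (libraries 1 to 3 in this order, here and throughout). The groups did not overlap, and bile acid library 2 lay nearest to the controls. In bulk RNA, more RNA of a gene per cell and more cells that make it cannot be told apart. The gene lies on chromosome 8 from 127735434 to 127741434, plus strand, in GRCh38, and 0.0% of its exonic length is shared with another gene. Its log2 fold change was 1.34 (SE 0.28), which placed it at rank 149 of 17743 genes tested. The quasi-likelihood test of edgeR, adjusted over all genes tested, did not call it (adjusted p = 0.911), nor did limma-voom (adjusted p = 0.875). DESeq2 called it (adjusted p = 0.0251), and the authors' deposited table gives a log2 fold change of 1.35, an SE of 0.33 and an adjusted p of 0.0414. The exact two-sided permutation test over the 6 libraries gave p = 0.1, the smallest that 3 against 3 can give.

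Of the 10 network genes 9 passed the filter on low counts. edgeR called 0 of the 9 and 0.0% of all genes tested at an adjusted p under 0.05, and limma-voom likewise called 0. At an unadjusted p under 0.05, edgeR had 3 of the 9 as higher, MYC, MNT and MXD1, where 1.93% of all genes tested were higher by that rule, and 0 as lower, where 1.39% of all genes were. By limma-voom 2 had such a p, MYC and MNT, with 1.92% of all genes higher by that rule. DESeq2 called 1, MYC, where 0.111% of all genes were called, and the authors' deposited table also holds MYC among its 19 called genes, 0.129% of those with an adjusted p. The groups did not overlap with bile acid higher in 3 of the 9, MYC, MNT and MXD1, and in 5.29% of all genes tested. They did not overlap with bile acid lower in 0 of the 9 and in 4.89% of all genes. The log2 fold change was positive in 7 of the 9 and in 48.8% of all genes. The median log2 fold change of the 9 was 0.13, against −0.01 over all genes tested.

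**Figure D1:**
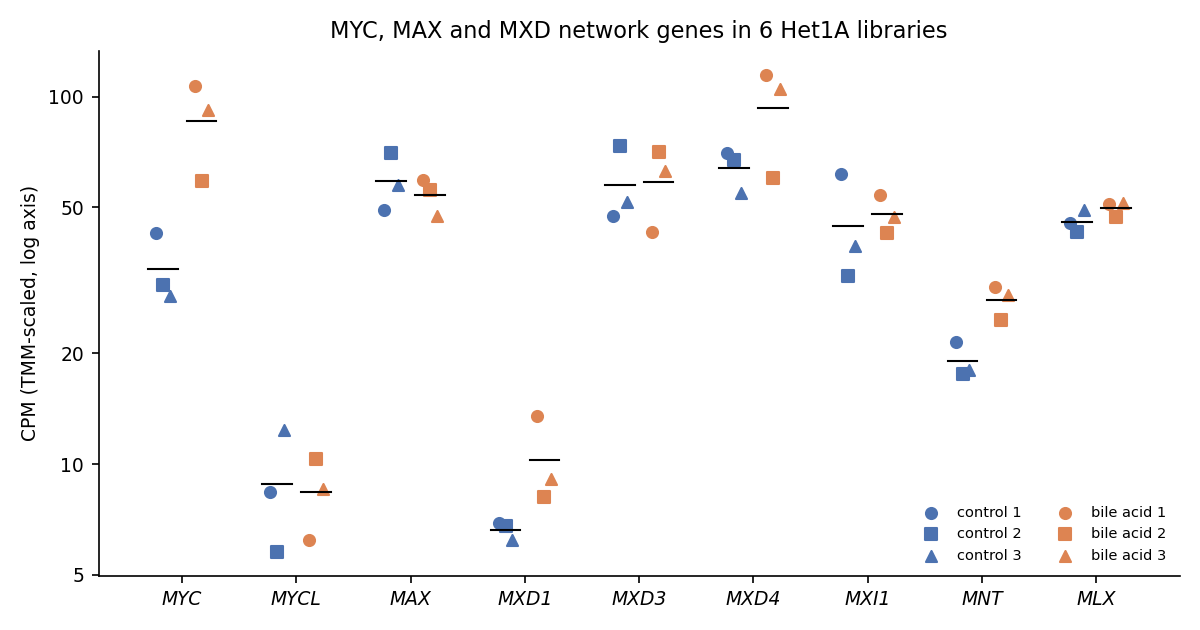
Level of 9 network genes in each library, in TMM-scaled CPM on a log axis. Blue symbols are the 3 control and orange symbols the 3 bile acid libraries, with circle, square and triangle for replicates 1, 2 and 3 and a black line at each group mean. MYC, MNT and MXD1 have all 3 bile acid symbols above all 3 control symbols. MYCN is not drawn because it had 0 to 12 counts.

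The other MYC family genes were scarce. MYCL, on chromosome 1 from 39895426 to 39902256, measured 8.37, 5.77 and 12.4 CPM in controls 1 to 3, against 6.21, 10.3 and 8.55 CPM after bile acid exposure. The groups overlapped over most of their range, and the log2 fold change was −0.08 (SE 0.34). MYCN, with counts of 9, 0 and 9 in controls and of 10, 12 and 10 after exposure, was too scarce for the test. The 0 in control library 2 allows a level of up to 0.143 CPM, taken without the TMM factor. By FPKM, which allows levels of different genes to be compared, MYC made up 78.6% to 90.0% of the summed MYC, MYCN and MYCL level in the controls and 89.9% to 96.3% in the bile acid libraries. The summed level was 11.4 ± 2.24 FPKM in controls and 26.0 ± 6.66 FPKM in bile acid libraries (mean ± SD, n = 3).

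MAX, the obligate partner of MYC, MYCN and MYCL, lies on chromosome 14 from 65006174 to 65102695. It measured 49.1, 70.2 and 57.7 CPM in controls 1 to 3, against 59.2, 55.6 and 47.4 CPM after bile acid exposure. The highest and the second lowest of these 6 values were both controls. The log2 fold change was −0.12 (SE 0.20), and it turned to 0.03 without control library 2. The ratio of MYC to MAX in FPKM was 1.28, 0.648 and 0.734 in controls, against 2.67, 1.56 and 2.87 after exposure. MYC thus exceeded MAX per length in 3 of 3 bile acid libraries and in control library 1 alone among the controls.

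The stretches upstream of MNT, MXD4 and MLX are shown because they are those of the network that hold the canonical E-box, the motif that the network proteins themselves bind. RefSeq start sites (GRCh38.p14) were matched for 9 of the 10 genes, all but MYC. CACGTG, which reads the same on both strands, was found within 250 bases upstream of a start in 3 of these 9 genes. Of 35116 such windows of all genes, 6.34% hold it. The 3 of 9 counts genes, whereas the 6.34% counts windows, so these shares cannot be compared directly. MAX and MXI1 have several windows each, none with CACGTG. In the sequences, written 5′ to 3′ on the strand of the gene, capitals mark the motif, which begins 193 bases before the start in MNT, 238 in MXD4 and 50 in MLX. The MNT window is chr17:2401223-2401298 (minus strand), the MXD4 window chr4:2262317-2262359 (minus strand) and the MLX window chr17:42567005-42567080 (plus strand).
MNT: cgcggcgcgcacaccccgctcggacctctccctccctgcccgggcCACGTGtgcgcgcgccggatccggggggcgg
MXD4: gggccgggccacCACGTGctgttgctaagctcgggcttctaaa
MLX: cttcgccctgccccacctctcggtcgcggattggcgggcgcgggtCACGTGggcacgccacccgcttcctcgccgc
The window of MXD1 holds no CACGTG. A match is a run of letters in the reference and not a measured binding site.

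MNT is a broadly expressed MAX-binding repressor, known to be present in growing and resting cells. It lies on chromosome 17 from 2384060 to 2401118, minus strand. MNT measured 21.5, 17.6 and 18.1 CPM in controls 1 to 3, against 30.3, 24.7 and 28.9 CPM after bile acid exposure. The bile acid group lay wholly above the control group, with library 2 again the lowest of the 3. Its log2 fold change was 0.55 (SE 0.19, edgeR unadjusted p = 0.0206 and adjusted p = 0.911), and it ranged from 0.37 to 0.65 over the other settings tried. An antisense gene covers 12.2% of the exonic length of MNT and had 0 counts in all 6 libraries. The E-box upstream of MNT is among the sequences printed above.

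MXD1, the MAD1 gene, is a repressor usually linked to differentiation, and lies on chromosome 2 from 69897688 to 69942945. It measured 6.90, 6.78 and 6.22 CPM in controls 1 to 3, against 13.6, 8.11 and 9.11 CPM after bile acid exposure. The controls lay close to each other, the groups did not overlap, and bile acid library 1 stood well above the rest. Its log2 fold change of 0.63 (SE 0.26, edgeR unadjusted p = 0.0471 and adjusted p = 0.911) was 0.38 without bile acid library 1. MXD1 also shares 3.73% of its exonic length with SNRNP27, which had 948 to 1214 counts where MXD1 had 121 to 380.

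MXD4, on chromosome 4 from 2247432 to 2262294, measured 70.5, 67.3 and 54.7 CPM in controls 1 to 3, against 115, 60.0 and 105 CPM after bile acid exposure. Bile acid libraries 1 and 3 lay above all controls, while library 2 lay between them, so the groups overlapped. The log2 fold change was 0.54 (SE 0.27, edgeR unadjusted p = 0.0856), 0.37 without bile acid library 1 and 0.79 without bile acid library 2.

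MXI1, also named MXD2, and MXD3 showed no common direction. MXI1, on chromosome 10 from 110207605 to 110287365, measured 61.7, 32.5 and 39.3 CPM in controls 1 to 3, against 54.0, 42.6 and 47.1 CPM after bile acid exposure. Control library 1 held its highest value and control library 2 its lowest, with all bile acid libraries between them. Its log2 fold change was 0.10 (SE 0.27), −0.07 without control library 2 and 0.42 without control library 1. MXD3, a family member tied to the S phase of the cell cycle, lies on chromosome 5 from 177301461 to 177312757. It measured 47.4, 73.3 and 51.8 CPM against 42.9, 70.7 and 62.8 CPM, a log2 fold change of 0.03 (SE 0.26). Both libraries numbered 2 were the highest of their group. MXD3 is uncertain as a single gene, because 40.4% of its exonic length is shared with RAB24 and PRELID1 and counting by strand is not stated.

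MLX, on chromosome 17 from 42567068 to 42573239, had the smallest SE of the 9 tested. It measured 45.3, 42.7 and 49.1 CPM in controls 1 to 3, against 51.1, 47.1 and 51.4 CPM after bile acid exposure. Control library 3 lay above bile acid library 2, and the log2 fold change was 0.13 (SE 0.16). Some of its exonic length, 18.1%, is shared with PSMC3IP on the opposite strand, which had 483 to 853 counts against 763 to 1478 for MLX.

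**Figure D2:**
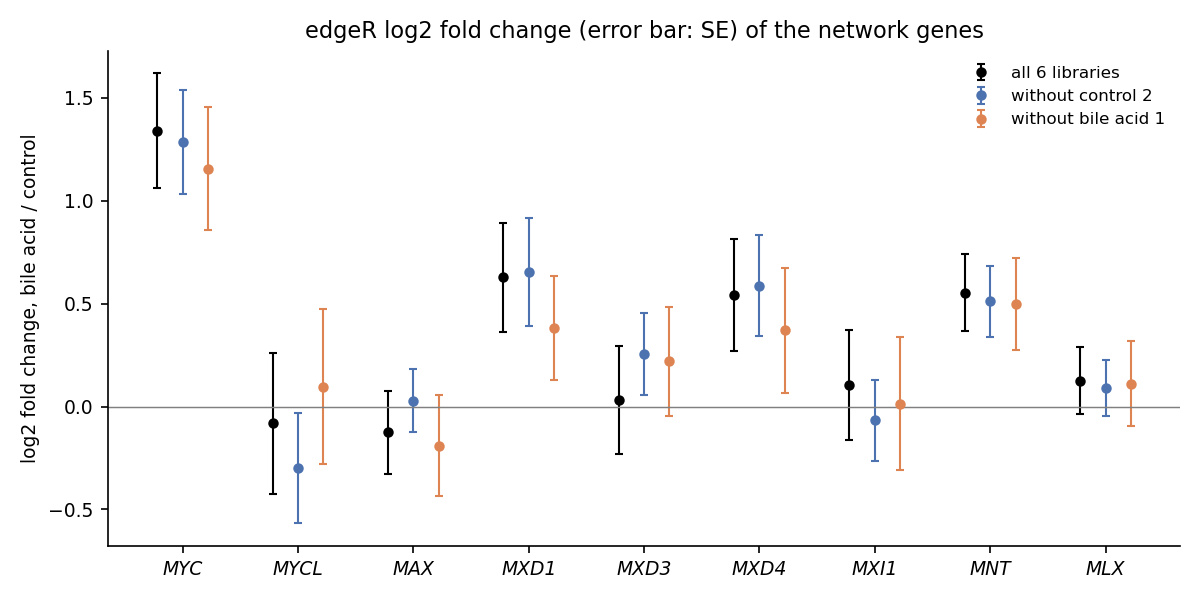
edgeR log2 fold change of bile acid against control for 9 network genes, with bars for the SE. Black points use all 6 libraries, blue points leave out control library 2 and orange points leave out bile acid library 1. MYC stays between 1.16 and 1.34 and MNT between 0.50 and 0.55, MXD1 is 0.38 without bile acid library 1, and MYCL, MAX and MXI1 change sign with a library left out.

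Without control library 2 the log2 fold change of MYC was 1.28 (SE 0.25), with an adjusted p of 0.170 in edgeR and 0.000316 in DESeq2, the latter fit added after the data were seen. Over all 21 settings the adjusted p of MYC ranged from 0.000316 to 1. MYC was the only one of the 10 genes that DESeq2 called without that library, where 0.979% of all genes tested were called. By edgeR without it, MYC, MNT, MXD1 and MXD4 had an unadjusted p under 0.05 as higher, against 5.02% of all genes tested. The log2 fold change of MYC was 1.16 without bile acid library 1 and 1.56 without bile acid library 2.

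Per length, the order of the network genes differed between the groups. In controls MAX led at 11.5 ± 1.90 FPKM, followed by MYC at 9.82 ± 2.24, MXD3 at 9.64 ± 2.16, MLX at 9.30 ± 0.755, MXI1 at 8.39 ± 2.97 and MXD4 at 7.87 ± 1.02 FPKM (mean ± SD, n = 3). Each of these 6 lay within the spread of its neighbours in that order. MNT followed at 1.89 ± 0.229 FPKM, MYCL at 1.52 ± 0.586 FPKM and MXD1 at 0.904 ± 0.0486 FPKM, and MYCN lay between 0 and 0.128 FPKM. In bile acid libraries MYC led at 24.4 ± 7.01 FPKM, and it was first of the 10 in 3 of 3 of them against 1 of 3 controls. MXD4 at 11.3 ± 3.54, MAX at 10.4 ± 1.15, MLX at 9.98 ± 0.492, MXD3 at 9.72 ± 2.37 and MXI1 at 8.86 ± 1.05 FPKM came next and did not differ from their neighbours beyond the spread. The lower ranks were MNT at 2.73 ± 0.282, MYCL at 1.41 ± 0.350 and MXD1 at 1.38 ± 0.386 FPKM.

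MYC took a larger part of the summed level of MYC and the 5 repressor genes in bile acid libraries. Of the summed FPKM of MYC, MXD1, MXD3, MXD4, MXI1 and MNT, it made up 28.2%, 23.2% and 24.5% in controls, against 46.0%, 35.6% and 42.2% after exposure. The means were 25.3% ± 2.54 and 41.3% ± 5.28 (SD, n = 3). This is a description with no test, since the genes were chosen with earlier results of these data known. The sum leaves out MYCL, MYCN and MGA. It includes MXD3, which shares 40.4% of its exonic length with other genes. The 5 repressor genes summed to 28.7 ± 3.01 FPKM in controls and 34.0 ± 3.19 FPKM in bile acid libraries, ranges that overlap because control library 1 stood at 31.6 FPKM and bile acid library 2 at 30.3 FPKM. MXD4 was 26.4% to 28.1% of the 5 repressors in controls, against 38.8%, 23.9% and 35.5% after exposure.

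**Figure D3:**
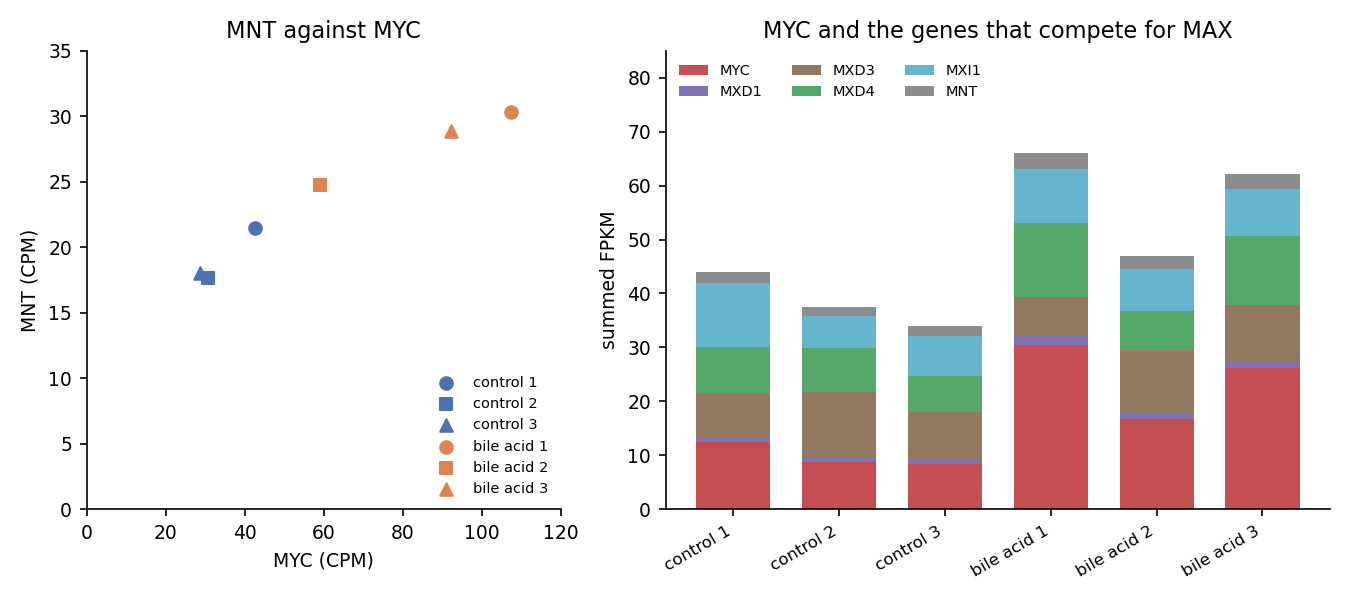
Left, MNT against MYC in CPM for each of the 6 libraries, with the symbols and colours of the plot of levels. Right, FPKM of MYC and the 5 repressor genes stacked for each library. The libraries have the same order in MNT as in MYC except for control libraries 2 and 3, MNT runs from 17.6 CPM in control library 2 to 30.3 CPM in bile acid library 1, and MYC makes up 35.6% to 46.0% of the stack in bile acid libraries against 23.2% to 28.2% in controls.

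MNT followed MYC closely across libraries. Among 14335 other protein-coding genes tested, MNT had the second highest Pearson correlation with MYC in log2 CPM, at 0.994 over the 6 libraries. The 6 points include both groups and each pair of values shares its library, so this is a description with no p. MXD1 correlated with MYC at 0.915, MXD4 at 0.869, MLX at 0.711 and MXI1 at 0.532, whereas MAX stood at −0.42, MXD3 at −0.26 and MYCL at −0.27. The other genes among the 5 most like MYC were IL10RA (0.997), an interleukin receptor chain, PIMREG (0.993), a mitotic regulator, PRKCD (0.992), a protein kinase C, and DYRK1B (0.991), a kinase of quiescence. Their log2 fold changes were 0.45, 0.53, 0.26 and 0.23, all smaller than that of MYC.

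Among the basic helix-loop-helix factors, the class to which the network belongs, the deposited table names 101 genes, of which 65 were tested. MYC had the highest log2 fold change of the 65, and MXD1, MNT and MXD4 were at ranks 12, 13 and 14. Of the 56 tested factors outside the network, 35 had a positive log2 fold change, against 48.8% of all genes, with a median of 0.11. All bile acid values exceeded all control values in 5 of the 56, against 5.29% of all genes, and lay below them in 1, against 4.89% of all genes.

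Of 15 tested genes that act on MYC RNA or its transcription, 10 had positive values, against 48.8% of all genes. The median was 0.355 in log2 fold change, against −0.01 over all genes tested. edgeR called 0 of the 15, and with all 6 libraries DESeq2 and limma-voom called 0 genes of this or any other list below. In edgeR 2 of them, IGF2BP2 and TCF7L2, were higher at an unadjusted p under 0.05, against 1.93% of all genes tested. All bile acid values exceeded all control values in 6 of the 15, against 5.29% of all genes, and lay below them in 1, CTCF, against 4.89% of all genes. IGF2BP3, which shields MYC mRNA, had the largest value, 1.03 (SE 0.78), and control library 2 held only 0.952 CPM of it against 12.9 and 14.2 CPM in the other controls. Without that library it was 0.51. PCBP1, an RNA-binding protein, had 0.87 (SE 0.44), 0.50 without control library 2, and shares 52.2% of its exonic length with an antisense gene. PCBP2 had −0.41 (SE 0.37), with 535 CPM in control library 2 against 220 and 235 CPM in the other controls, and 0.14 without that library. PCBP2 shares 32.7% of its exonic length with other genes. CTCF, an insulator protein that binds near the MYC promoter, measured 167, 179 and 198 CPM in controls 1 to 3, against 128, 153 and 143 CPM after bile acid exposure. It lay lower in 3 of 3 bile acid libraries than in any control, with a log2 fold change of −0.36 (SE 0.18, edgeR unadjusted p = 0.0746, adjusted p = 0.911).

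The 20 genes of MYC protein turnover had a median of 0.13 in log2 fold change. Of the 20, 13 were positive, against 48.8% of all genes. All bile acid values exceeded all control values in 2 of the 20, against 5.29% of all genes. edgeR called 0, with 0 at an unadjusted p under 0.05, where 1.93% of all genes were higher and 1.39% lower. SKP2, a ubiquitin ligase subunit that targets MYC, measured 53.7, 48.5 and 63.1 CPM in controls 1 to 3, against 76.8, 65.8 and 79.8 CPM after bile acid exposure, which lay above all controls (log2 fold change 0.43, SE 0.19). BTRC, another ligase subunit, also lay above (0.39, SE 0.24, and 0.20 without control library 2). At the other end stood SET, an inhibitor of the phosphatase PP2A, at −0.22 (SE 0.23, and 0.03 without control library 2), and MYCBP, a MYC-binding protein, at −0.44 (SE 0.42). For MYCBP the control 2 value of 76.2 CPM compared with 24.0 and 29.3 CPM in the other controls, and its log2 fold change was 0.27 without that library. MYCBP shares 36.7% of its exonic length with other genes.

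Cofactors showed small differences. The 15 coactivators had a median of −0.11 with 5 positive, and 0.045 with 9 positive without control library 2. The 12 corepressors had a median of 0.05 with 8 positive. Over all genes tested 48.8% were positive, and 50.8% without control library 2. In edgeR 0 of the 27 were called, against 0.0% of all genes tested. Of the 27, 0 had an unadjusted p under 0.05, where 1.93% of all genes were higher and 1.39% lower. All bile acid values exceeded all control values in 1 of the 12 corepressors, HDAC1, against 5.29% of all genes. They lay below all control values in 1, ING2, against 4.89% of all genes. Among the 15 coactivators 0 did either. HDAC1, a histone deacetylase that serves the MXD proteins, measured 203, 213 and 200 CPM in controls 1 to 3, against 242, 237 and 290 CPM after bile acid exposure, a log2 fold change of 0.32 (SE 0.18). SIN3A, the scaffold that MXD proteins recruit, had 0.37 (SE 0.27), 0.15 without control library 2. The chromatin reader ING2, at −0.615 (SE 0.29), lay below all controls, with −0.22 without control library 2. SAP18, of the SIN3 complex, had −0.34, and 0.12 without control library 2. KAT5 and TRRAP, of the acetyltransferase complexes that MYC recruits, had 0.27 and 0.24, and 0.05 and −0.19 without control library 2. KAT5 shares 38.6% of its exonic length with other genes. PAF1, of a transcription elongation complex, had −0.61, with its highest value in control library 2, and 0.07 without that library.

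The wider network and other E-box binders gave no call in edgeR, DESeq2 or limma-voom among 3 and 7 genes tested. At an unadjusted p under 0.05, edgeR had 0 of them, where 1.93% of all genes were higher and 1.39% lower. DESeq2 had 1 as higher, BHLHE40, where 442 of all 17743 genes tested were higher. By limma-voom 1 of the E-box binders was higher, against 1.92% of all genes. The medians of the lists in log2 fold change were −0.07 and −0.22, and 0.08 and 0.15 without control library 2. MLXIP, which encodes MondoA, had a log2 fold change of 0.32 (SE 0.31), MGA, a large MAX-binding repressor, −0.07 (SE 0.31), and MLXIPL, which encodes ChREBP, −0.23 (SE 0.38). Without control library 2 these were 0.08, −0.33 and 0.235. BHLHE40, a repressor of the circadian clock, measured 64.8, 14.1 and 24.8 CPM in controls 1 to 3, against 135, 46.4 and 76.5 CPM after bile acid exposure. Control library 1 lay above bile acid library 2, and the log2 fold change was 1.31 (SE 0.60), 0.83 without bile acid library 1. Its relative BHLHE41 had 0.66, which turned to −0.83 without bile acid library 1, while MITF had −0.23 and USF2 −0.28, with −0.40 and −0.02 without control library 2.

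TXNIP, a brake on glucose uptake and the best known target of MondoA and MLX, measured 414, 511 and 454 CPM in controls 1 to 3, against 581, 646 and 791 CPM after bile acid exposure. The groups did not overlap and the log2 fold change was 0.55 (SE 0.21, edgeR unadjusted p = 0.0311, adjusted p = 0.911). Without control library 2 it was 0.64, and DESeq2 then called it (adjusted p = 0.0271, against 0.744 with all libraries). ARRDC4, the related target, had a log2 fold change of 0.24 (SE 0.33), −0.02 without control library 2, and its groups overlapped.

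Known MYC targets of ribosome building and growth had values on both sides of 0. Of 57 listed, 56 were tested and 25 were positive, against 48.8% of all genes. The median log2 fold change was −0.06, against −0.01 over all genes. edgeR called 0, DESeq2 called 0 and limma-voom called 0, and 1 gene, DUSP2, was higher at an unadjusted p under 0.05 in edgeR, against 1.93% of all genes. The list median relative to each gene's mean was −0.13, 0.33 and −0.16 in controls, against 0.06, 0.00 and −0.05 after exposure. Control library 2 was thus the highest of the 6. Without it the median was 0.12 with 42 of 56 positive, against 50.8% of all genes. Of the 56, 8 were then higher at an unadjusted p under 0.05, a share to be read against 5.02% of all genes. DUSP2, a MAP kinase phosphatase, measured 2.77, 2.80 and 3.28 CPM in controls 1 to 3, against 34.1, 5.67 and 8.34 CPM after bile acid exposure, a log2 fold change of 2.44 (SE 0.67) that was 1.25 without bile acid library 1. HK2, a hexokinase, had 0.48 (SE 0.68, and 0.08 without control library 2) with overlapping groups. MRTO4, a ribosome assembly factor, and NDUFAF4, a complex I assembly factor, had −0.84 and −0.79, with control library 2 at 234 CPM and 56.2 CPM, and −0.06 and −0.09 without it.

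The 21 classic activated targets had a median of 0.05 with 13 positive, and 0.28 with 19 positive without control library 2. Over all genes tested 48.8% were positive, and 50.8% without that library. In edgeR 0 were called with or without that library, where 0.00547% of all genes were called without it. At an unadjusted p under 0.05, 1 of the 21 was higher with all libraries, TFRC, against 1.93% of all genes, and 5 were higher without control library 2, against 5.02% of all genes. ODC1, which makes polyamines, measured 94.9, 199 and 106 CPM in controls 1 to 3, against 117, 113 and 104 CPM after bile acid exposure, a log2 fold change of −0.26 that was 0.16 without control library 2. Nucleolin, NCL, had −0.02 (SE 0.24) and 0.23 without control library 2. CDK4, a kinase of the G1 phase from the list of growth targets, lay above all controls at 104 to 113 CPM against 85.8 to 98.8 CPM (log2 fold change 0.24, SE 0.16), though 43.2% of its exonic length is shared with other genes. TFRC, the transferrin receptor, measured 21.7, 11.8 and 17.8 CPM in controls 1 to 3, against 63.8, 21.75 and 31.5 CPM after bile acid exposure. Its log2 fold change of 1.19 (SE 0.42) was 0.64 without bile acid library 1, and bile acid library 2 barely exceeded control library 1. NME1, at −1.10, had 197 CPM in control library 2 against 31.8 and 27.8 CPM in the others, and 0.43 without it. NME1 shares 18.6% of its exonic length with other genes. EIF4A1 had 0.98, but only 1.06 to 5.64 CPM were assigned to it and 48.6% of its exonic length is shared with other genes, so it is uncertain. SHMT2, of one-carbon metabolism, had −0.63 (SE 0.345), and −0.30 without control library 2. Without control library 2, DESeq2 called 1 of the 21, ENO1, where that fit called 0.979% of all genes tested. This glycolytic enzyme is named here after its values were seen (log2 fold change 1.01, adjusted p = 0.0274, against 0.932 with all libraries).

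Genes that MYC is known to repress had mostly positive values. Of 9 tested, 8 had a positive value, against 48.8% of all genes. The median log2 fold change was 0.38, and 0.23 without control library 2. All bile acid values exceeded all control values in 2 of the 9, against 5.29% of all genes. edgeR called 0, with 0 at an unadjusted p under 0.05, where 1.93% of all genes were higher and 1.39% lower. DESeq2 and limma-voom called 0. At an unadjusted p under 0.05 DESeq2 had 1 as higher, CDKN1A, where 442 of all 17743 genes tested were higher. CDKN1A, the p21 cell cycle inhibitor, measured 75.0, 75.7 and 67.8 CPM in controls 1 to 3, against 185, 89.4 and 87.0 CPM after bile acid exposure, wholly above the controls. Its log2 fold change of 0.725 (SE 0.32) was 0.28 without bile acid library 1. NDRG1, a stress-responsive differentiation gene, and THBS1, thrombospondin, had 0.87 and 0.79, and 0.06 and 0.15 without bile acid library 1. NDRG2 had −0.33 (SE 0.26, and −0.01 without control library 2) and GADD45A 0.19 (SE 0.23), and their groups overlapped.

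**Figure D4:**
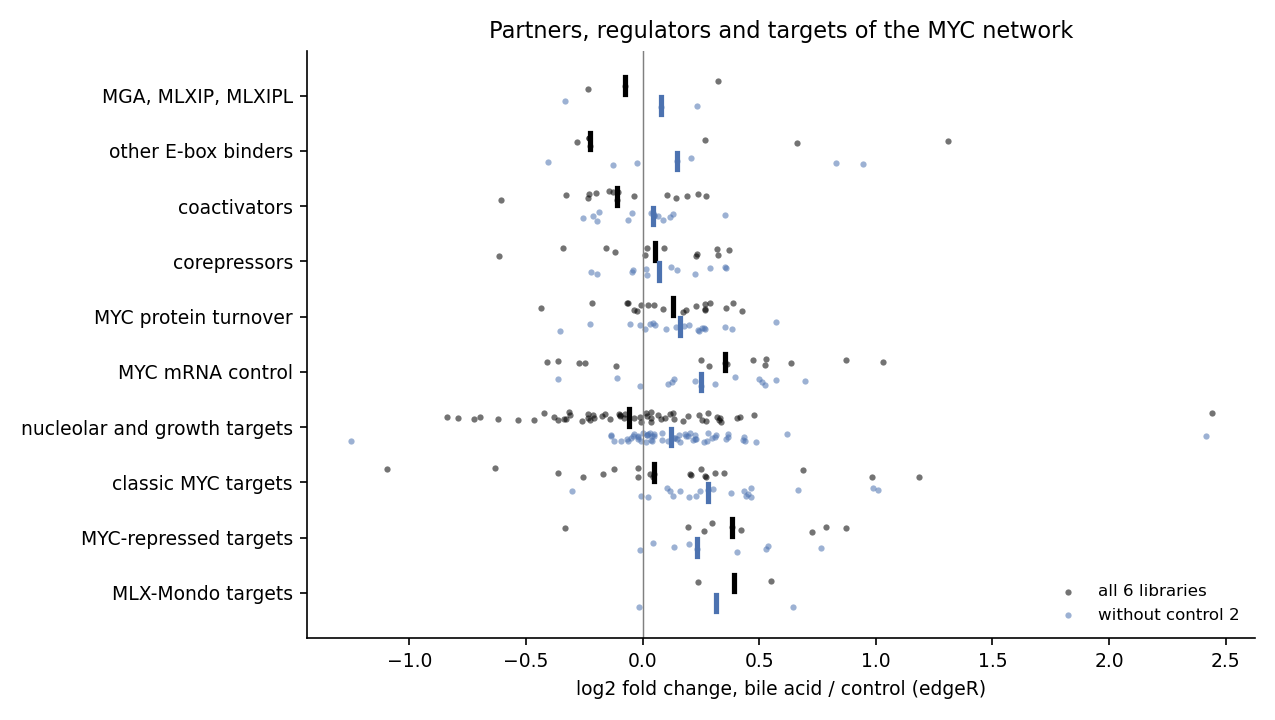
edgeR log2 fold change of each tested gene in 10 lists of partners, regulators and targets, with 1 point per gene and a bar at the median of the list. Black uses all 6 libraries and blue leaves out control library 2. The median of the nucleolar and growth targets moves from −0.06 to 0.12 and that of the classic targets from 0.05 to 0.28, and that of the MYC-repressed targets goes from 0.38 to 0.23.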

How the data were processed

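Whole-number read counts per gene were deposited by the authors. The submitters' processing notes name GRCh38, featureCounts, HISAT2 2.0.5 and DESeq2 but no roles. Annotation and strand setting are not given in the sources used here. Coordinates and exonic lengths equal those of GENCODE release 29 for 100% of genes. The deposited FPKM are these counts over exonic length and a constant per library. The deposited normalized counts, a signal of the authors, are whole reads over 1 size factor per library (100% of values whole within 0.001). They come from another counting, and edgeR called 0 genes on these reads. A deposited comparison holds a mean signal, log2 fold changes and p-values, per the file headers.

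Bile acid was compared with control, 3 against 3 libraries, by the quasi-likelihood test of edgeR 4.0.16 with TMM, filterByExpr and Benjamini-Hochberg adjustment at 0.05. SEs are the log2 fold change over the root of F. Alternatives were DESeq2 1.42.0 and limma 3.58.1 (voom, and log2(FPKM + 1) or log2(FPKM + 0.1)), other scalings and filters, a length trend removed by lowess of span 0.3, a replicate block, the recovered reads, and each library left out. Scripts were tested on simulated data. Overlap of exons counts either strand. Genes named by the rule below whose overlap is not given above shared at most 17.9% of their exonic length, the value of IGF2BP3. Overlap was not computed for ENO1, IGF2BP2 and TCF7L2, which that rule does not name. Members and lists were chosen with earlier results of these data known. Named were all members, all tested genes of the 2 smallest lists, the 2 highest and 2 lowest log2 fold changes of the others, 4 set genes (ODC1, NCL, CDK4 and CDKN1A) and the 5 genes most like MYC. A gene that this rule names among the coactivators is not reported here.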

Additional observations from a re-analysis of the deposited data

How the results depend on the processing

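The number of genes called by edgeR was 0, and 0 to 1 with a library left out. It was 19 with DESeq2, 19 with DESeq2 on the recovered reads and 158 with DESeq2 without control 2, of which the last pair was added after the data were seen. The network genes called went from 0 to 1, MYC, under each of these 3 DESeq2 fits, where its log2 fold change was 1.34, 1.35 and 1.28. Listed partners and targets called went from 0 to 2, TXNIP and ENO1, with DESeq2 without control 2. That fit called 0.979% of all genes tested. MYC, MNT, MXD1, MXD4 and MLX kept a positive sign under all 20 alternatives, and the log2 fold change of MYC ranged from 1.16 to 1.56 with a library left out. Signs turned for values near 0. MYCL ranged from −0.30 to 0.25, MAX from −0.24 to 0.03, MXD3 from −0.11 to 0.26 and MXI1 from −0.07 to 0.42 with a library left out. Without control 2, MAX had 0.0287 and MXI1 -0.0672 in edgeR, and 0.0275 and -0.0675 in DESeq2. MXD3 had -0.0125 with the length trend removed, and -0.00949 with that and the replicate block. The cause was not tested. The replicate block alone called 0 genes and gave MYC 1.32. Deviations of same-numbered libraries correlated at 0.307, 0.382 and 0.0979, and not every library correlated best with its own number, so the numbers were not taken to pair the libraries. At most 12 counts of MYCN in any library limit what can be said of it.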
